A study of Mus musculus with 9 samples.

Results

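Mouse splenic CD8+ T cells held for 24 h with 500 nM of interleukin-2 (IL-2), or with as much interleukin-15 (IL-15), were compared with untreated cells. The comparison used 3 of the 9 RNA sequencing libraries of the series: IL-2 at 500 nM for 24 h, IL-15 at 500 nM for 24 h, and untreated. The mice were C57BL/6 females aged 6 weeks, with no transgene or mutation named. Each library was made from RNA of 3 samples treated alike and pooled, so every condition had 1 library and animals could not be compared. The labels do not say how the CD8+ cells were purified, nor how long the untreated cells were kept in culture. No culture without cytokine was among the libraries, so the effects of cytokine and of time in culture cannot be told apart. The other 6 libraries (1 nM at 4 h and 24 h, and 500 nM at 4 h, with each cytokine) entered the estimate of spread and the closing comparisons. A gene was called only where both cytokine libraries lay on the same side of the untreated library. For a called gene that position is therefore given as description and adds no support.

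IL-2 and IL-15 bind receptors that share a beta chain (Il2rb) and the common gamma chain (Il2rg), which activate the kinases JAK1 and JAK3 and the transcription factor STAT5. Each cytokine also has a private alpha chain, Il2ra or Il15ra, that raises the affinity of binding. In CD8+ T cells these signals are known to drive growth, division and the production of cytotoxic granules. They are also known to lower genes of the resting, recirculating state, partly through the kinase AKT and the transcription factor FOXO1.

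With 1 transcript per gene, counts summed to 35968467 reads with IL-2 and 33576577 with IL-15, against 32213676 in untreated cells, and to between 27158143 and 48799962 over the 9 libraries. The 10 highest genes took 8.26% of reads with IL-2 and 8.20% with IL-15, against 13.9% in untreated cells. Across genes, the log-scale correlation was 0.970 between the IL-2 and IL-15 libraries at 500 nM and 24 h, as a description over genes that share libraries and depth. Levels below are counts per 1e6 (CPM) after TMM scaling, which allows one gene to be compared between libraries but not 1 gene with another. Counting intervals and lower bounds cover counting error only, since amplified reads without molecular identifiers do not stand for separate molecules.

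Of 13479 genes tested, 1871 were higher (13.9%) and 1779 lower (13.2%) at 500 nM and 24 h than in untreated cells, at an adjusted p under 0.05 (quasi-likelihood test of edgeR, Benjamini-Hochberg). The p-values measure the spread between IL-2 and IL-15 libraries of 1 dose and time, and the single untreated library is assumed to vary like them. Without the IL-2 500 nM 24 h library, 1201 genes were higher and 1068 lower. Fitted on the 3 libraries alone, 3057 were higher and 2788 lower. The median log2 fold change over all genes tested was 0.00. Counts of list members against untreated cells, given below, are to be read beside these shares of 13.9% higher and 13.2% lower. The lists were chosen with earlier results of these data known. Their counts therefore describe the lists and give no independent support. Both cytokine libraries lay on the same side of the untreated library for 11569 genes, 5782 above it and 5787 below it. These 2 differences share the untreated library, so that count includes any deviation of that library.

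**Figure D1:**
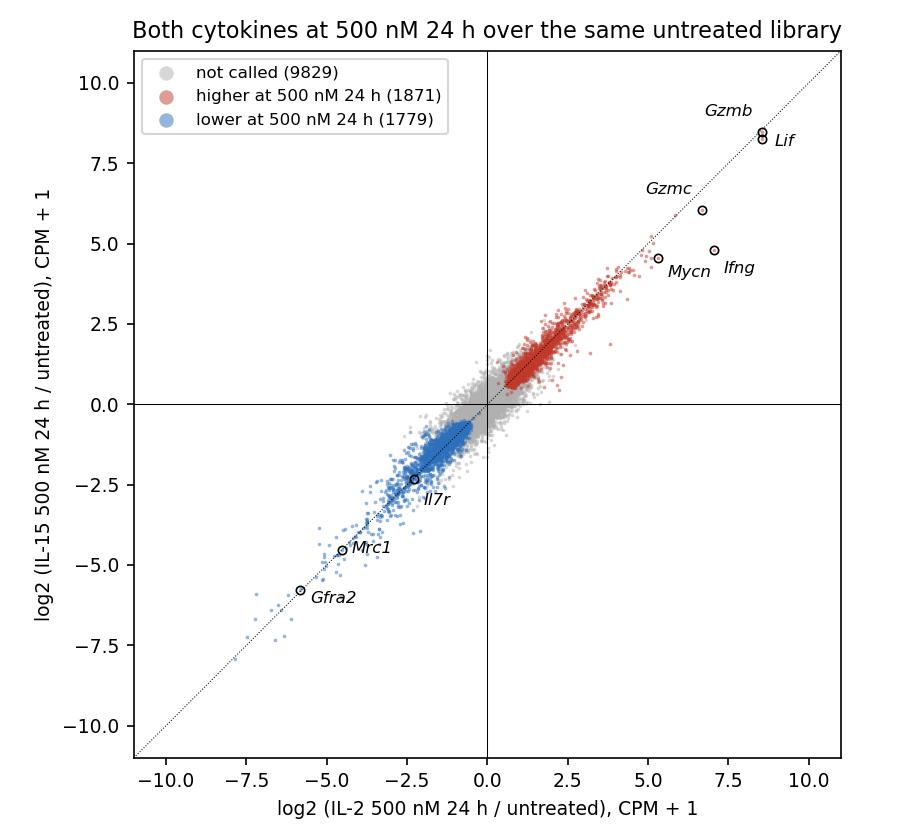
Each point is 1 of 13479 genes, placed by its log2 ratio of CPM (offset 1 CPM) for IL-2 over untreated and for IL-15 over untreated, with coloured points for the 1871 genes called higher and the 1779 called lower. Called genes lie in the upper right and lower left because a call needs both cytokines on the same side; both axes share the untreated library.

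The label of CD8+ T cells was checked first. Cd8a, the CD8 alpha chain, measured 897 CPM with IL-2 and 985 CPM with IL-15, against 903 CPM in untreated cells, and Cd8b1, the beta chain, 1058 CPM with IL-2 and 1161 CPM with IL-15, against 1615 CPM in untreated cells. Neither passed the test (adjusted p = 0.87 and 0.065). Cd4 was at 0.227 CPM with IL-2 and 1.66 CPM with IL-15, against 5.62 CPM in untreated cells, and was not called. Among 18 genes of T cell identity and receptor signalling, 1 rose and 6 fell, where 13.9% and 13.2% of all genes tested did, with a median log2 fold change of -0.53. Thy1, a surface glycoprotein of T cells, rose to 382 CPM with IL-2 and 407 CPM with IL-15, against 226 CPM in untreated cells. The falls included Cd3g, a chain of the T cell receptor complex, at 236 CPM with IL-2 and 268 CPM with IL-15, against 500.2 CPM in untreated cells (log2 fold change -0.99 ± 0.21 (SE), adjusted p = 0.00362). Cd5, a negative regulator of receptor signalling, was at 58.8 CPM with IL-2 and 68.5 CPM with IL-15, against 149 CPM in untreated cells (log2 fold change -1.22 ± 0.24 (SE), adjusted p = 0.00193). Lck, the kinase that starts receptor signalling, stood at 789 CPM with IL-2 and 859 CPM with IL-15, against 835 CPM in untreated cells, and did not pass. Without the IL-2 library 3 of the 6 falls and no rise were called, and without the IL-15 library 2 falls and no rise.

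Markers of B cells, myeloid cells, dendritic cells and erythroid cells were present in the untreated library, and their summed levels were lower in both cytokine libraries. Of 16 B cell markers 12 fell and none rose. Their summed level was 693 CPM with IL-2 and 829 CPM with IL-15, against 2276 CPM in untreated cells, and without the IL-2 library 7 falls were called. Cd79a, a chain of the B cell receptor, measured 81.0 CPM with IL-2 and 91.0 CPM with IL-15, against 242 CPM in untreated cells (log2 fold change -1.49 ± 0.20 (SE), adjusted p = 0.0002), whereas Pax5, the B lineage transcription factor, had 0 reads in all 3 libraries. Of 19 myeloid and macrophage markers 16 fell and none rose, and their summed level was 68.2 CPM with IL-2 and 49.1 CPM with IL-15, against 2387 CPM in untreated cells. In the 1 nM libraries the same markers summed to between 359.8 and 1247 CPM, and at 500 nM and 4 h to 270 CPM with IL-2 and 222 CPM with IL-15. Dendritic cell markers fell for 6 of 10 and rose for 1, Bst2, which is also an interferon-induced gene. Erythroid and platelet markers fell for 4 of 8, or 3 of 7 when Hbb-b1 and Hbb-b2, which share all their counts, are taken once. With that pair taken once they summed to 7.79 CPM with IL-2 and 5.22 CPM with IL-15, against 94.3 CPM in untreated cells. None of 4 tested neutrophil markers was called, and S100a8, one of their defining genes, had 0 reads in all 3 libraries. Of 10 NK cell markers 2 rose and 2 fell, where 13.9% and 13.2% of all genes tested did. The risers, Eomes and Nkg7, are also made by CD8+ T cells, and Ncr1, the defining receptor of NK cells, was at 0.142 CPM with IL-2 and 0.593 CPM with IL-15, against 0 CPM in untreated cells. The summed NK markers were 507 CPM with IL-2 and 535 CPM with IL-15, against 414 CPM in untreated cells. Of 8 markers of CD4+ and regulatory T cells 1 rose, a share near the 13.9% of all genes tested, and 2 fell, against 13.2% of all genes. Of 6 plasma cell markers 2 rose (Xbp1 and Irf4, both also made by activated T cells) and 2 fell (Sdc1 and Igj, with Igj alone called when either 500 nM 24 h library was left out). In bulk RNA, fewer cells of a type and less RNA per cell cannot be told apart. The part of these cells in the results below was not tested, so their levels are given beside the gene groups they touch.

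**Figure D2:**
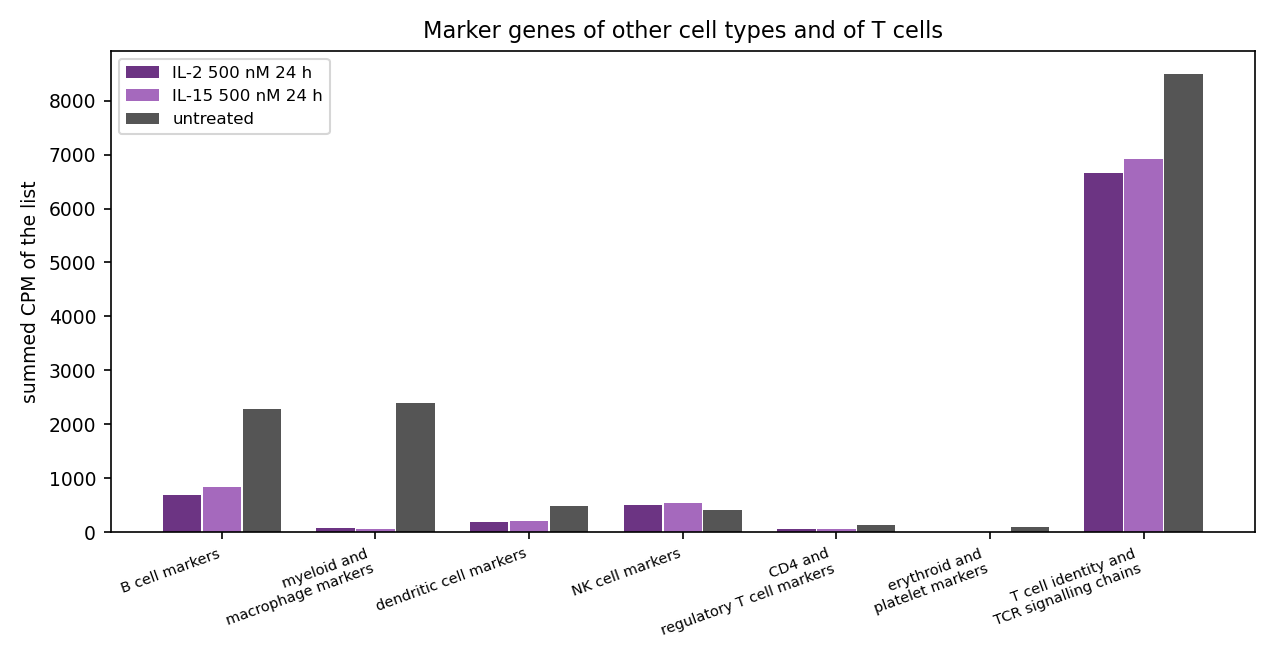
Summed CPM of each marker list on a linear axis from 0, 1 bar per library (IL-2 500 nM 24 h, IL-15 500 nM 24 h, untreated) and no error bars, since each condition has 1 library. The myeloid and macrophage markers sum to 68.2 and 49.1 CPM with IL-2 and IL-15, against 2387 CPM in untreated cells; the T cell identity genes sum to 6651 CPM with IL-2 and 6917 CPM with IL-15, against 8503 CPM in untreated cells.

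The receptor chains themselves differed. Il2ra, the IL-2 receptor alpha chain, measured 88.8 CPM with IL-2 and 61.5 CPM with IL-15, against 1.65 CPM in untreated cells (log2 fold change 5.51 ± 1.03 (SE), adjusted p = 0.00155). Il2rb, the beta chain that IL-2 and IL-15 share, measured 891 CPM with IL-2 and 869.5 CPM with IL-15, against 378 CPM in untreated cells (log2 fold change 1.22 ± 0.24 (SE), adjusted p = 0.00202). Both cytokine libraries lay above the untreated library for either chain. Il7r, the IL-7-binding receptor chain, fell to 29.1 CPM with IL-2 and 28.2 CPM with IL-15, against 146 CPM in untreated cells (log2 fold change -2.35 ± 0.30 (SE), adjusted p = 0.000118), and Il9r, the IL-9 receptor, also fell (1 read over both cytokine libraries). The common gamma chain Il2rg stood at 317 CPM with IL-2 and 347 CPM with IL-15, against 232 CPM in untreated cells and Il15ra at 36.1 CPM with IL-2 and 40.2 CPM with IL-15, against 17.2 CPM in untreated cells, neither past the test (adjusted p = 0.124 and 0.145). Of the 8 chains 2 rose and 2 fell. Il9r was not called when either 500 nM 24 h library was left out.

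Genes known as STAT5 targets, or as inhibitors that such signalling switches on, were mostly higher. Of 18 tested, 11 rose and 1 fell, with a median log2 fold change of 1.54. Cish, a feedback inhibitor of cytokine receptors, measured 1115 CPM with IL-2 and 1013 CPM with IL-15, against 39.6 CPM in untreated cells (log2 fold change 4.75 ± 0.72 (SE), adjusted p = 0.000405). Socs1, an inhibitor of JAK kinases, measured 182 CPM with IL-2 and 189.9 CPM with IL-15, against 19.2 CPM in untreated cells (log2 fold change 3.28 ± 0.28 (SE), adjusted p = 4.06e-06). Socs2, of the same family, measured 66.7 CPM with IL-2 and 61.3 CPM with IL-15, against 12.6 CPM in untreated cells (log2 fold change 2.34 ± 0.39 (SE), adjusted p = 0.000755). All 3 inhibitors were higher with both cytokines. Socs3 stood at 257 CPM with IL-2 and 186 CPM with IL-15, against 263 CPM in untreated cells, the untreated level above both, and was not called. Among cytokine genes on this list, Lif, which encodes leukaemia inhibitory factor, showed the largest log2 fold change, with 573 CPM with IL-2 and 469 CPM with IL-15, against 0.549 CPM in untreated cells (log2 fold change 9.88 ± 0.93 (SE), adjusted p = 1.13e-05). Osm, which encodes oncostatin M, measured 247 CPM with IL-2 and 209 CPM with IL-15, against 23.7 CPM in untreated cells (log2 fold change 3.26 ± 0.54 (SE), adjusted p = 0.000664). Lta, which encodes lymphotoxin alpha, measured 1445 CPM with IL-2 and 1171 CPM with IL-15, against 46.4 CPM in untreated cells (log2 fold change 4.82 ± 0.76 (SE), adjusted p = 0.000505). For these cytokines both treated libraries lay far above the untreated one. Gadd45g, a stress response gene, rose to 117 CPM with IL-2 and 85.7 CPM with IL-15, against 2.91 CPM in untreated cells (log2 fold change 5.12 ± 0.63 (SE), adjusted p = 9.68e-05). Bcl2l1, which encodes the survival protein BCL-XL, rose to 141 CPM with IL-2 and 162 CPM with IL-15, against 31.9 CPM in untreated cells (log2 fold change 2.25 ± 0.33 (SE), adjusted p = 0.000324). Bcl2 itself stood at 440.2 CPM with IL-2 and 439 CPM with IL-15, against 210.01 CPM in untreated cells, and missed the threshold (log2 fold change 1.07 ± 0.42 (SE), adjusted p = 0.0782). Pim1, a survival kinase gene, stood at 8.53 CPM with IL-2 and 12.1 CPM with IL-15, against 5.33 CPM in untreated cells, and was not called. Ccnd2, which encodes cyclin D2, was at 901 CPM with IL-2 and 851 CPM with IL-15, against 593 CPM in untreated cells, and was not called either. The faller, named after its value was seen, was Dusp6, a phosphatase of ERK kinases, at 40.7 CPM with IL-2 and 42.3 CPM with IL-15, against 106 CPM in untreated cells (log2 fold change -1.35 ± 0.26 (SE), adjusted p = 0.00204).

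The promoter of Lta is shown because 2 matches to the STAT motif lie in it. STAT dimers bind TTCNNNGAA, a palindrome that reads alike on both strands. RefSeq places the 250 bases before the Lta start at chr17:35205352-35205601 on the minus strand of GRCm38.p6, a later build than the mm8 build of the counts, and capitals mark the matches, which begin at positions -152 and -16 from the start.
Lta: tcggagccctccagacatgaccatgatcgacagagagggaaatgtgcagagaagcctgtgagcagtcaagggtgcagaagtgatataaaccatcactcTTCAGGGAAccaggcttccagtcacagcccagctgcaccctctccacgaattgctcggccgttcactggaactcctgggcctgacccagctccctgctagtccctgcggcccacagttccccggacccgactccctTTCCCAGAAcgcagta
Of 27025 RefSeq promoters, read from 250 bases before to 50 bases after the start, 8.47% hold this motif. Among the genes that rose, 1509 of 1871 have a promoter in the table (80.7%), and 8.15% of those hold it. The share was 6.19% among the genes that fell, 6.92% among those not called and 7% among all genes tested. Only 77.8% of the STAT5 list have a promoter there, fewer than the 80% set as a minimum, so its share is void. The genes that fell (77.2%), those not called (77.9%) and all genes tested (78.2%) also miss that minimum. Their shares, here and for the motifs below, are incomplete baselines. A match describes letters only.

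Cytotoxic genes moved in both directions. Gzmb, which encodes granzyme B, a protease that triggers death of target cells, measured 3683 CPM with IL-2 and 3489.7 CPM with IL-15, against 8.88 CPM in untreated cells (log2 fold change 8.66 ± 1.24 (SE), adjusted p = 0.000294). Gzmc, a related granzyme, measured 101 and 65.5 CPM with IL-2 and IL-15, against 0 reads in untreated cells, and was at least 862-fold higher when 3 counts stand for the untreated library. On the same terms Gzme was at least 35.5-fold and Gzmg at least 24.8-fold higher. Granzymes c, e and g are close copies of each other and the handling of multi-mapping reads is not given, so their split is uncertain. Gzma, another granzyme, stood at 4.62 CPM with IL-2 and 6.62 CPM with IL-15, against 2.55 CPM in untreated cells, and was not called. Gzmm, a granzyme of resting lymphocytes, fell to 7.59 CPM with IL-2 and 12.4 CPM with IL-15, against 50.3 CPM in untreated cells (log2 fold change -2.33 ± 0.35 (SE), adjusted p = 0.000389). Prf1, which encodes the pore protein perforin, also fell, to 79.0 CPM with IL-2 and 84.5 CPM with IL-15, against 133 CPM in untreated cells (log2 fold change -0.70 ± 0.21 (SE), adjusted p = 0.022). Per length, the authors' RPKM for Gzmb was 1822 with IL-2 and 1761 with IL-15, against 4.04 in untreated cells. For Prf1 it was 27.0 with IL-2 and 29.4 with IL-15, against 41.6 in untreated cells.

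Effector cytokines and death ligands were higher. Ifng, which encodes interferon gamma, measured 265 CPM with IL-2 and 54.5 CPM with IL-15, against 1.00 CPM in untreated cells (log2 fold change 7.31 ± 1.37 (SE), adjusted p = 0.00153). The IL-2 library lay well above the IL-15 library for this gene, a difference with 1 library a side and no test. Tnf, which encodes tumour necrosis factor, measured 131 CPM with IL-2 and 119 CPM with IL-15, against 11.4 CPM in untreated cells (log2 fold change 3.45 ± 0.42 (SE), adjusted p = 9.68e-05). Fasl, the ligand of the death receptor FAS, measured 19.3 CPM with IL-2 and 20.4 CPM with IL-15, against 0.613 CPM in untreated cells (log2 fold change 5.01 ± 0.76 (SE), adjusted p = 0.000399). Serpinb9, an inhibitor of granzyme B, rose to 97.8 CPM with IL-2 and 69.0 CPM with IL-15, against 17.4 CPM in untreated cells (log2 fold change 2.26 ± 0.34 (SE), adjusted p = 0.000399). Across the list of cytotoxic effectors and effector cytokines, 9 of 19 rose and 3 fell, with a median log2 fold change of 2.26. Prf1 and Gzme were not called when either 500 nM 24 h library was left out. Gzmg was not called when either 500 nM 24 h library was left out, without either 500 nM 4 h library or with a cytokine term. Ifng was not called by limma-voom.

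Transcription factors of effector and memory T cells did not move one way: of 25 tested, 5 rose and 8 fell, and the median log2 fold change was -0.12. Eomes, a T-box factor of cytotoxic and memory cells, measured 238 CPM with IL-2 and 255 CPM with IL-15, against 103 CPM in untreated cells (log2 fold change 1.26 ± 0.27 (SE), adjusted p = 0.00358). Its relative Tbx21 (T-bet) stood at 137 CPM with IL-2 and 87.7 CPM with IL-15, against 122 CPM in untreated cells, and was not called. Irf4, a factor of activated lymphocytes, rose to 31.4 CPM with IL-2 and 20.5 CPM with IL-15, against 7.78 CPM in untreated cells (log2 fold change 1.74 ± 0.34 (SE), adjusted p = 0.00199). Bhlhe40, which acts in cytokine production, rose to 128 CPM with IL-2 and 94.0 CPM with IL-15, against 18.9 CPM in untreated cells (log2 fold change 2.56 ± 0.28 (SE), adjusted p = 4.17e-05). The other risers were Nfil3, a basic leucine zipper factor, at 13.4 CPM with IL-2 and 15.9 CPM with IL-15, against 1.39 CPM in untreated cells, and Hif1a. Hif1a, the hypoxia-inducible factor, was at 109.8 CPM with IL-2 and 74.8 CPM with IL-15, against 40.6 CPM in untreated cells. All 5 risers lay above the untreated library with both cytokines. Prdm1, which encodes Blimp-1, a factor of terminal effector cells, stood at 1.47 CPM with IL-2 and 1.96 CPM with IL-15, against 0.678 CPM in untreated cells, and was not called. Tcf7, a factor that keeps T cells naive or memory-like, fell to 331 CPM with IL-2 and 352 CPM with IL-15, against 1912 CPM in untreated cells (log2 fold change -2.49 ± 0.22 (SE), adjusted p = 5.54e-06). Lef1, of the same family, fell to 158 CPM with IL-2 and 174 CPM with IL-15, against 438 CPM in untreated cells (log2 fold change -1.40 ± 0.22 (SE), adjusted p = 0.000467). Tox, of the HMG box family, fell to 7.68 CPM with IL-2 and 9.94 CPM with IL-15, against 36.3 CPM in untreated cells (log2 fold change -2.04 ± 0.38 (SE), adjusted p = 0.00156). Gata3, Myb, Foxo1 and Bcl6 fell as well (log2 fold changes -1.80, -2.10, -1.56 and -2.77). Batf, Id2 and Id3 were not called. Hif1a was not called without the IL-2 500 nM 24 h library. Bcl6 was not called when either 500 nM 24 h library was left out, without either 1 nM 24 h library or by limma-voom.

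Genes of naive, recirculating T cells were lower as a group. Of 20 tested 16 fell and 1 rose, and the median log2 fold change was -1.46. S1pr1, the receptor that lets lymphocytes leave lymphoid tissue, measured 156 CPM with IL-2 and 208 CPM with IL-15, against 1073 CPM in untreated cells (log2 fold change -2.56 ± 0.23 (SE), adjusted p = 7.5e-06). Klf2, the factor that drives S1pr1, measured 34.2 CPM with IL-2 and 39.2 CPM with IL-15, against 242 CPM in untreated cells (log2 fold change -2.72 ± 0.20 (SE), adjusted p = 1.38e-06). Both cytokine libraries lay below the untreated library for each. Ccr7, the chemokine receptor for lymph nodes, measured 405 CPM with IL-2 and 426 CPM with IL-15, against 633 CPM in untreated cells (log2 fold change -0.61 ± 0.19 (SE), adjusted p = 0.0327). Il6ra, Il6st, Actn1, Dapl1, St6gal1 and Satb1 were among the other falls, with log2 fold changes of -1.74, -1.53, -1.93, -1.91, -1.67 and -0.98. B cells also make Ccr7, Klf2 and S1pr1, and their markers were lower as given above, with a part that was not tested. The riser was Ms4a4b, a T cell membrane protein, at 189.6 CPM with IL-2 and 272 CPM with IL-15, against 56.8 CPM in untreated cells (log2 fold change 2.02 ± 0.41 (SE), adjusted p = 0.00267). Ccr7 was not called when either 500 nM 24 h library was left out. Satb1 was not called without the IL-15 500 nM 24 h library.

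Quiescence genes that FOXO factors or low PI3K activity sustain also fell, 11 of 20 with none rising (median log2 fold change -1.19). Foxo1 measured 101 CPM with IL-2 and 98.4 CPM with IL-15, against 295 CPM in untreated cells (log2 fold change -1.56 ± 0.20 (SE), adjusted p = 0.000117). Cdkn1b, which encodes the CDK inhibitor p27, measured 2.83 CPM with IL-2 and 0.920 CPM with IL-15, against 24.2 CPM in untreated cells (log2 fold change -3.68 ± 0.64 (SE), adjusted p = 0.000937). Tsc22d3, a glucocorticoid-induced gene, measured 37.5 CPM with IL-2 and 61.7 CPM with IL-15, against 311 CPM in untreated cells (log2 fold change -2.65 ± 0.28 (SE), adjusted p = 2.71e-05). Sesn1, an inhibitor of mTORC1, measured 59.4 CPM with IL-2 and 64.1 CPM with IL-15, against 262 CPM in untreated cells (log2 fold change -2.09 ± 0.25 (SE), adjusted p = 7.29e-05). Txnip, an inhibitor of glucose uptake, measured 119.5 CPM with IL-2 and 147 CPM with IL-15, against 404 CPM in untreated cells (log2 fold change -1.60 ± 0.23 (SE), adjusted p = 0.000274). All 5 lay below the untreated library with both cytokines. Pik3ip1, an inhibitor of PI3K, and the antiproliferative genes Btg1 and Btg2 fell too (log2 fold changes -1.71, -1.04 and -2.12). Ddit4 was not called when either 500 nM 24 h library was left out. Tob1 was not called without the IL-2 500 nM 24 h library.

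**Figure D3:**
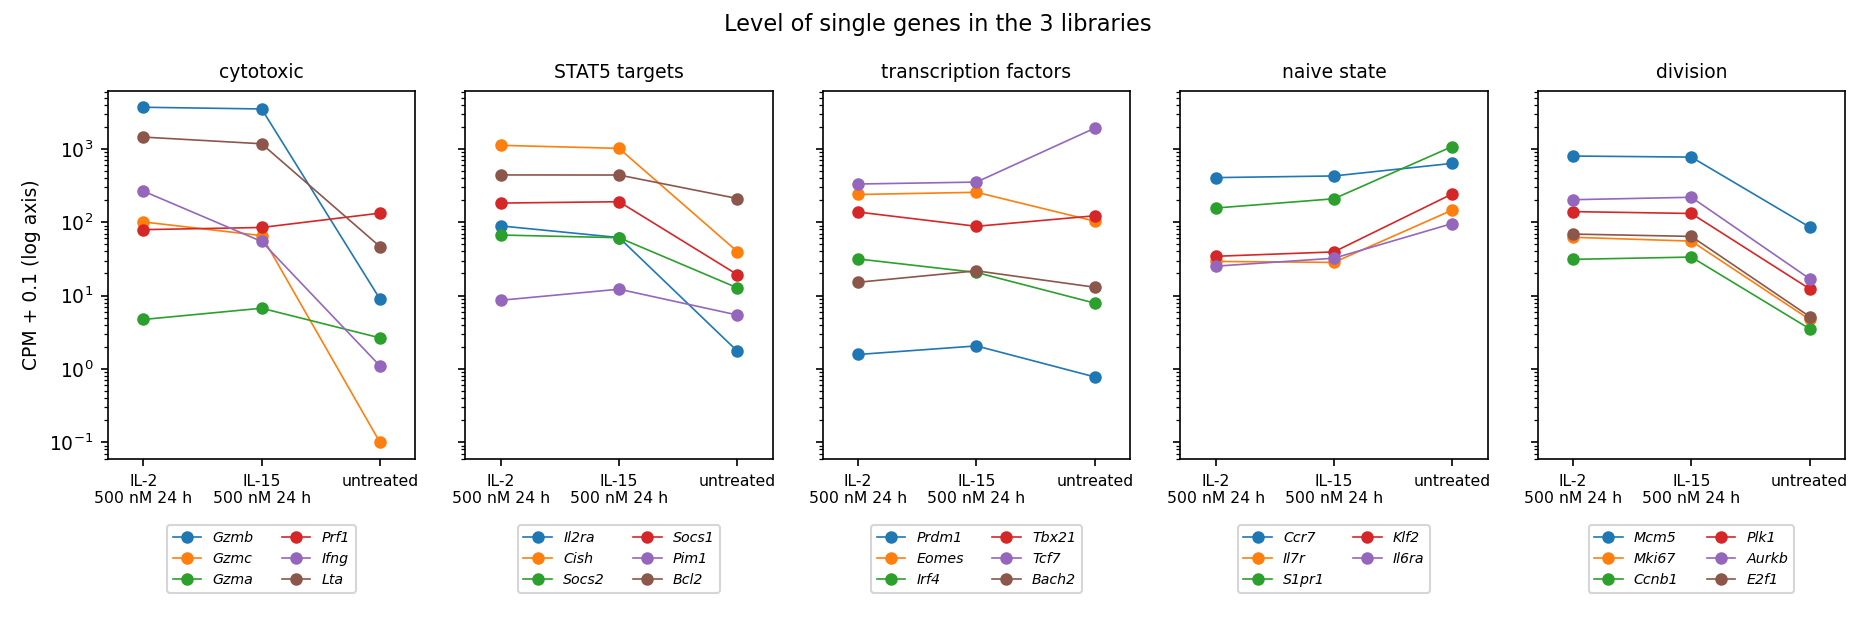
Levels of single genes in the IL-2 500 nM 24 h, IL-15 500 nM 24 h and untreated libraries (CPM plus 0.1, log axis), 1 point per library, joined by lines for each gene. Gzmb, Ifng and Cish lie far higher with either cytokine than in untreated cells, and Tcf7 lies lower.

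Costimulatory and inhibitory receptors rose for 7 of 18 and fell for 3 (median log2 fold change 0.56). Tnfrsf9, the costimulatory receptor 4-1BB, measured 134 CPM with IL-2 and 125 CPM with IL-15, against 11.5 CPM in untreated cells (log2 fold change 3.50 ± 0.64 (SE), adjusted p = 0.0014). Cd69, an early activation marker that retains cells in tissue, measured 152 CPM with IL-2 and 152 CPM with IL-15, against 29.5 CPM in untreated cells (log2 fold change 2.36 ± 0.48 (SE), adjusted p = 0.0025). Both lay above the untreated library with either cytokine. Cd274, which encodes the inhibitory ligand PD-L1, measured 25.4 CPM with IL-2 and 31.2 CPM with IL-15, against 4.81 CPM in untreated cells (log2 fold change 2.56 ± 0.67 (SE), adjusted p = 0.0122). Pdcd1, which encodes PD-1, measured 7.73 CPM with IL-2 and 5.82 CPM with IL-15, against 1.84 CPM in untreated cells (log2 fold change 1.88 ± 0.41 (SE), adjusted p = 0.00413). Cd27, a costimulatory receptor of naive and memory cells, fell to 151 CPM with IL-2 and 159 CPM with IL-15, against 461 CPM in untreated cells (log2 fold change -1.57 ± 0.19 (SE), adjusted p = 9.48e-05). Lag3, an inhibitory receptor, fell to 4.45 CPM with IL-2 and 4.39 CPM with IL-15, against 27.2 CPM in untreated cells (log2 fold change -2.62 ± 0.38 (SE), adjusted p = 0.000317). Ctla4, Havcr2 and Tigit were not called. Cd274 and Pdcd1 were not called by limma-voom.

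Chemokine genes split. Ccl3, a chemokine of activated CD8+ T cells, was at 10.8 CPM with IL-2 and 8.19 CPM with IL-15, against 0.129 CPM in untreated cells (log2 fold change 6.16 ± 1.22 (SE), adjusted p = 0.00218). Ccl4, a close relative of Ccl3, was at 91.2 CPM with IL-2 and 87.2 CPM with IL-15, against 6.07 CPM in untreated cells (log2 fold change 3.88 ± 0.38 (SE), adjusted p = 1.46e-05). Xcl1, which attracts cross-presenting dendritic cells, rose to 79.8 CPM with IL-2 and 61.8 CPM with IL-15, against 11.2 CPM in untreated cells (log2 fold change 2.66 ± 0.47 (SE), adjusted p = 0.000977). Ccl5, a chemokine of memory CD8+ cells, fell to 33.7 CPM with IL-2 and 29.1 CPM with IL-15, against 214 CPM in untreated cells (log2 fold change -2.77 ± 0.23 (SE), adjusted p = 3.46e-06). Among 16 chemokines and their receptors 6 rose and 3 fell, and the median log2 fold change was 2.84, or 1.96 with genes that had too few reads set at their bound. Among integrins and memory surface proteins 4 of 16 rose and 4 fell. Ly6a, the surface antigen Sca-1, measured 601 CPM with IL-2 and 620.2 CPM with IL-15, against 9.46 CPM in untreated cells (log2 fold change 6.01 ± 0.56 (SE), adjusted p = 1.04e-05). Itgae, the integrin that binds epithelium, measured 2.80 CPM with IL-2 and 4.57 CPM with IL-15, against 81.2 CPM in untreated cells (log2 fold change -4.46 ± 0.34 (SE), adjusted p = 1.64e-06). Itgb7, its partner chain, measured 278 CPM with IL-2 and 344 CPM with IL-15, against 836 CPM in untreated cells (log2 fold change -1.43 ± 0.22 (SE), adjusted p = 0.000419). Itgae is also made by dendritic cells, whose markers summed to 183 CPM with IL-2 and 199 CPM with IL-15, against 488 CPM in untreated cells. Ly6c1 and Ly6c2, near copies whose reads may be split, were both higher. Cd44, the usual memory marker, stood at 33.2 CPM with IL-2 and 34.8 CPM with IL-15, against 31.5 CPM in untreated cells, and was not called. Of 11 NK receptor genes 2 rose: Nkg7, a granule protein, and Klrc1, an inhibitory receptor. That share is near the 13.9% of all genes tested that rose. Without the IL-2 or the IL-15 library only 1 of those 2 was called. Ccr2 was not called without the IL-2 500 nM 24 h library. Ccl9 was not called without the IL-15 500 nM 24 h library, by limma-voom or with the 3 libraries alone.

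Genes of cell division were higher almost throughout. Of 32 genes of DNA replication 31 rose and none fell (median log2 fold change 3.01). Of 29 genes of mitosis and the spindle 26 rose and none fell (median 3.56). Mcm5, a subunit of the replicative helicase, measured 797 CPM with IL-2 and 770.5 CPM with IL-15, against 85.7 CPM in untreated cells (log2 fold change 3.19 ± 0.42 (SE), adjusted p = 0.000173). Mcm6, another subunit, measured 1086 CPM with IL-2 and 1004 CPM with IL-15, against 273 CPM in untreated cells (log2 fold change 1.93 ± 0.27 (SE), adjusted p = 0.000272). Rrm2, the ribonucleotide reductase subunit that makes DNA precursors, measured 541 CPM with IL-2 and 534 CPM with IL-15, against 29.6 CPM in untreated cells (log2 fold change 4.18 ± 0.60 (SE), adjusted p = 0.000306). Both cytokine libraries lay above the untreated library for all 3. Of the mitotic genes, Cdc2a (CDK1), the kinase that starts mitosis, measured 158 CPM with IL-2 and 155 CPM with IL-15, against 9.04 CPM in untreated cells (log2 fold change 4.11 ± 0.82 (SE), adjusted p = 0.00231). Plk1, a kinase of spindle assembly, measured 139 CPM with IL-2 and 131 CPM with IL-15, against 12.2 CPM in untreated cells (log2 fold change 3.47 ± 0.63 (SE), adjusted p = 0.00126). Mki67, the proliferation marker Ki-67, measured 62.1 CPM with IL-2 and 55.1 CPM with IL-15, against 4.62 CPM in untreated cells (log2 fold change 3.67 ± 0.52 (SE), adjusted p = 0.000274). The cytokine libraries again lay above the untreated one. Ube2c, the ubiquitin-conjugating enzyme of the anaphase-promoting complex, measured 204 CPM with IL-2 and 191 CPM with IL-15, against 22.1 CPM in untreated cells (log2 fold change 3.16 ± 0.52 (SE), adjusted p = 0.000645). The checkpoint kinase gene Ttk had 0 reads in untreated cells and was at least 87.5-fold higher, with 3 counts standing for the untreated library.

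Promoters of these groups are shown for 2 members, with motif matches in capitals. The E2F motif searched was TTTNGCGC on either strand, where E2F factors act on S phase genes, and the cell cycle homology region searched was TTTGAA on either strand, a site known from mitotic genes. Of the 26 replication genes with a promoter in RefSeq, 8 hold the E2F motif in the 300-base window (30.8%), against 4.77% of the promoters of genes that rose, 2.49% of those of all genes tested and 1.38% of all 27025 promoters. Of the 25 mitotic genes with a promoter, 19 hold TTTGAA there (76%), against 17.6% for genes that rose, 12% for all genes tested and 18.1% of all promoters. Without the 50 bases after the start the shares were 19.2% and 32%, against 3.71% and 14.6% for genes that rose. The Mcm6 window lies at chr1:128359706-128359955 on the minus strand and the Ube2c window at chr2:164769679-164769928 on the plus strand of GRCm38.p6, each given as the 250 bases before the start. The 3 Mcm6 matches begin at -110, -106 and -47, and the Ube2c match begins at -29 and is read from the opposite strand. A check of bases after the start against sense transcripts passed for Ube2c but not for Mcm6. The Mcm6 positions therefore rest on the RefSeq start alone.
Mcm6: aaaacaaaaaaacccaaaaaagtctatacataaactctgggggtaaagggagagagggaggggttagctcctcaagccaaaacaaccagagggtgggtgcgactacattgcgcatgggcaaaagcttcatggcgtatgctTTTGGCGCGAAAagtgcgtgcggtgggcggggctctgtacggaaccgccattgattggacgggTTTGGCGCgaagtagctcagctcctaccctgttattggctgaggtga
Ube2c: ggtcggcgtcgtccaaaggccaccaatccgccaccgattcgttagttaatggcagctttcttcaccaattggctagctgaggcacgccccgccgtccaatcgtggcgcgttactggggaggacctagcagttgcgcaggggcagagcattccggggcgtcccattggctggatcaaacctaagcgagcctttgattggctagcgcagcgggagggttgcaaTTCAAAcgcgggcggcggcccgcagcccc
The 2 matches at -110 and -106 overlap by 4 bases.

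Regulators of the G1 phase split, with 6 of 14 rising and 3 falling. Ccnd3, which encodes cyclin D3, measured 2757 CPM with IL-2 and 2385 CPM with IL-15, against 789 CPM in untreated cells (log2 fold change 1.71 ± 0.25 (SE), adjusted p = 0.000324). Cdk6, its kinase partner, measured 48.8 CPM with IL-2 and 31.1 CPM with IL-15, against 3.58 CPM in untreated cells (log2 fold change 3.48 ± 0.74 (SE), adjusted p = 0.00349). Ccnd1, which encodes cyclin D1, fell to 2.01 CPM with IL-2 and 2.05 CPM with IL-15, against 15.1 CPM in untreated cells (log2 fold change -2.89 ± 0.55 (SE), adjusted p = 0.00178). Cdkn1a, which encodes the CDK inhibitor p21, rose to 33.5 CPM with IL-2 and 24.5 CPM with IL-15, against 1.84 CPM in untreated cells (log2 fold change 3.98 ± 0.44 (SE), adjusted p = 4.7e-05), while Cdkn1b fell, as given above. In the MYC network of 10 genes 4 rose and 3 fell. Myc, the growth regulator, measured 779 CPM with IL-2 and 673 CPM with IL-15, against 457 CPM in untreated cells (log2 fold change 0.67 ± 0.23 (SE), adjusted p = 0.0417). Mycn, its relative, had 2186 reads over the cytokine libraries and 1 read in untreated cells, a ratio of 981-fold (95% exact counting interval 176 to 38780.3). The MYC antagonists Mxd4, Mxi1 and Mnt fell (log2 fold changes -3.59, -2.39 and -0.89) and Mxd3, another of them, rose (1.40). Without the IL-2 library 2 of the 4 rises, and without the IL-15 library 1 of the 3 falls, was called. Myc was not called when either 500 nM 24 h library was left out, with median-of-ratios scaling or with a cytokine term. Mxd4 was not called without the IL-15 500 nM 24 h library, without either 1 nM 4 h library, without either 1 nM 24 h library or with the 3 libraries alone. Mnt was not called when either 500 nM 24 h library was left out. Mycn was not called by limma-voom.

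Of 20 genes of glycolysis and glucose uptake 12 rose and 1 fell (median log2 fold change 1.19). Hk2, the hexokinase that commits glucose to glycolysis, measured 23.9 CPM with IL-2 and 14.6 CPM with IL-15, against 0.743 CPM in untreated cells (log2 fold change 4.69 ± 0.69 (SE), adjusted p = 0.000321). Ldha, which makes lactate, measured 2308 CPM with IL-2 and 2219 CPM with IL-15, against 753 CPM in untreated cells (log2 fold change 1.59 ± 0.24 (SE), adjusted p = 0.000438). Slc2a1, the glucose transporter GLUT1, measured 89.8 CPM with IL-2 and 84.2 CPM with IL-15, against 39.4 CPM in untreated cells (log2 fold change 1.14 ± 0.23 (SE), adjusted p = 0.0024). Both cytokine libraries lay above the untreated one for these 3 genes. Pdk1, the kinase that closes the route of pyruvate into mitochondria, fell to 215 CPM with IL-2 and 242 CPM with IL-15, against 582 CPM in untreated cells (log2 fold change -1.35 ± 0.21 (SE), adjusted p = 0.000519). Gapdh rose as well, though its many pseudogene copies make its counts uncertain. In the pentose phosphate pathway 1 of 7 rose, Tkt (transketolase), a share near the 13.9% of all genes. Gapdh was not called without the IL-2 500 nM 24 h library. Tkt was not called when either 500 nM 24 h library was left out.

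Amino acid transporters and targets of the stress factor ATF4 rose for 17 of 22, with none falling (median 1.38). Slc7a5, which carries large neutral amino acids, measured 153 CPM with IL-2 and 133 CPM with IL-15, against 22.6 CPM in untreated cells (log2 fold change 2.66 ± 0.40 (SE), adjusted p = 0.000413). Asns, which makes asparagine, measured 52.0 CPM with IL-2 and 35.7 CPM with IL-15, against 1.26 CPM in untreated cells (log2 fold change 5.12 ± 0.72 (SE), adjusted p = 0.000263). Psat1, of serine synthesis, measured 366 CPM with IL-2 and 305 CPM with IL-15, against 40.4 CPM in untreated cells (log2 fold change 3.05 ± 0.56 (SE), adjusted p = 0.00133). Both cytokine libraries lay above the untreated one for these 3 genes, as a call requires. Chac1, which degrades glutathione, measured 13.0 CPM with IL-2 and 7.27 CPM with IL-15, against 1.55 CPM in untreated cells (log2 fold change 2.71 ± 0.57 (SE), adjusted p = 0.00314). Slc1a5, a glutamine transporter, stood at 452 CPM with IL-2 and 447 CPM with IL-15, against 493 CPM in untreated cells, and was not called. Of 16 cytosolic aminoacyl tRNA synthetases, which load amino acids onto tRNA, 15 rose. Wars, the tryptophan enzyme, measured 358 CPM with IL-2 and 370.2 CPM with IL-15, against 70.2 CPM in untreated cells (log2 fold change 2.38 ± 0.61 (SE), adjusted p = 0.0103). Sars, the serine enzyme and the exception, measured 94.8 CPM with IL-2 and 89.3 CPM with IL-15, against 60.7 CPM in untreated cells. Chac1 was not called by limma-voom.

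The Chac1 promoter is printed as one with the ATF4 motif searched, TGATGCAA on either strand. The 250 bases before the start lie at chr2:119350992-119351241 on the plus strand of GRCm38.p6, and the match in capitals begins at position -193, read from the opposite strand.
Chac1: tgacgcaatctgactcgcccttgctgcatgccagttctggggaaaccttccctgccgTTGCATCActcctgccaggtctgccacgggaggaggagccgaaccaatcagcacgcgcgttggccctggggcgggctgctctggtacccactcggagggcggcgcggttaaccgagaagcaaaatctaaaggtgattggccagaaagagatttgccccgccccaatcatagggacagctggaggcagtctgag
Of 19 promoters of the amino acid list 3 hold the motif in the 300-base window (15.8%), against 0.994% for genes that rose, 0.635% for all genes tested and 0.929% of all promoters.

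Nucleotide synthesis rose for 12 of 16 genes and none fell (median 1.49); Umps, which makes UMP, measured 217 CPM with IL-2 and 189.7 CPM with IL-15, against 41.8 CPM in untreated cells (log2 fold change 2.28 ± 0.32 (SE), adjusted p = 0.00028). In polyamine synthesis 3 of 9 rose and 1 fell (median 0.13), and Odc1, its first enzyme, measured 63.5 CPM with IL-2 and 63.6 CPM with IL-15, against 9.62 CPM in untreated cells (log2 fold change 2.72 ± 0.42 (SE), adjusted p = 0.000433). Cholesterol and fatty acid synthesis rose for 14 of 28 and fell for 3 (median 1.30). Sqle, which makes squalene epoxide, measured 86.1 CPM with IL-2 and 72.6 CPM with IL-15, against 13.0 CPM in untreated cells (log2 fold change 2.61 ± 0.47 (SE), adjusted p = 0.00124). The 3 falls were Abca1 and Abcg1, which export cholesterol, and Scd1, a desaturase. Macrophages also make the exporters, and their markers fell, as given above. Srm and Cyp51 were not called without the IL-2 500 nM 24 h library. Impdh2 was not called when either 500 nM 24 h library was left out. Abca1 was not called without the IL-15 500 nM 24 h library, without either 1 nM 4 h library, with a cytokine term or by limma-voom. Mvk was not called without the IL-15 500 nM 24 h library.

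The machinery that builds ribosomes and the ribosomal proteins moved in opposite directions. Of 30 ribosome biogenesis genes 27 rose and none fell (median log2 fold change 1.34). Nolc1, a nucleolar assembly factor, measured 354 CPM with IL-2 and 309.7 CPM with IL-15, against 87.6 CPM in untreated cells (log2 fold change 1.92 ± 0.26 (SE), adjusted p = 0.0002). Npm1, nucleophosmin, measured 1474 CPM with IL-2 and 1301 CPM with IL-15, against 564 CPM in untreated cells (log2 fold change 1.30 ± 0.25 (SE), adjusted p = 0.00173). Of 28 cytosolic ribosomal proteins 14 fell and none rose (median -0.67), and without the IL-15 library 8 falls were called. Rpl4, of the large subunit, measured 10319.6 CPM with IL-2 and 10093 CPM with IL-15, against 16401 CPM in untreated cells (log2 fold change -0.68 ± 0.20 (SE), adjusted p = 0.022). Rplp1, of its stalk, measured 3319.7 CPM with IL-2 and 2851 CPM with IL-15, against 8167 CPM in untreated cells (log2 fold change -1.40 ± 0.17 (SE), adjusted p = 8.28e-05). Untreated cells had the higher CPM of both. CPM is relative to the other genes of a library, so a lower value need not be less RNA per cell. Ribosomal proteins have many near-identical pseudogenes, so their counts are uncertain. Translation factors rose for 13 of 17 and fell for 1, Eif4ebp2, a repressor of translation (median 1.47). Eif5a, which relieves stalled ribosomes, measured 1259.6 CPM with IL-2 and 1218 CPM with IL-15, against 251 CPM in untreated cells (log2 fold change 2.30 ± 0.40 (SE), adjusted p = 0.00099). Rpl4 was not called when either 500 nM 24 h library was left out. Eif4ebp2 was not called without the IL-2 500 nM 24 h library.

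Mitochondrial genes rose in part: 11 of 25 respiratory chain genes (median 0.65) and 11 of 20 of mitochondrial translation and import (median 0.96), with no falls. Without the IL-2 library the counts were 7 and 5. Cycs, cytochrome c, measured 68.6 CPM with IL-2 and 55.0 CPM with IL-15, against 20.6 CPM in untreated cells (log2 fold change 1.58 ± 0.36 (SE), adjusted p = 0.00541). Hspd1, the mitochondrial chaperonin, measured 1262 CPM with IL-2 and 1037 CPM with IL-15, against 347 CPM in untreated cells (log2 fold change 1.73 ± 0.30 (SE), adjusted p = 0.00101). Of 23 constitutive proteasome subunits 22 rose and none fell (median 1.63). Psmb2, a catalytic-ring subunit, measured 539 CPM with IL-2 and 531 CPM with IL-15, against 111 CPM in untreated cells (log2 fold change 2.27 ± 0.29 (SE), adjusted p = 0.000121). Of 23 genes of ER chaperones and the unfolded protein response 11 rose and 1 fell. Hspa5, the chaperone BiP, measured 843 CPM with IL-2 and 770.2 CPM with IL-15, against 289.8 CPM in untreated cells (log2 fold change 1.48 ± 0.26 (SE), adjusted p = 0.000986). The faller was Dnajb9, a co-chaperone of BiP, at 31.2 CPM with IL-2 and 22.8 CPM with IL-15, against 57.4 CPM in untreated cells (log2 fold change -1.09 ± 0.25 (SE), adjusted p = 0.00614). Of 15 cytosolic heat shock genes 9 rose and 2 fell. Hsp90aa1, a chaperone of the HSP90 family, measured 907 CPM with IL-2 and 792 CPM with IL-15, against 140.4 CPM in untreated cells (log2 fold change 2.60 ± 0.36 (SE), adjusted p = 0.000233). The 2 falls were the stress-induced HSP70 genes Hspa1a and Hspa1b, near copies of each other, with log2 fold changes of -2.38 and -2.14. Dnajb9 was not called without the IL-15 500 nM 24 h library. Hspa1b was not called without the IL-2 500 nM 24 h library or by limma-voom.

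**Figure D4:**
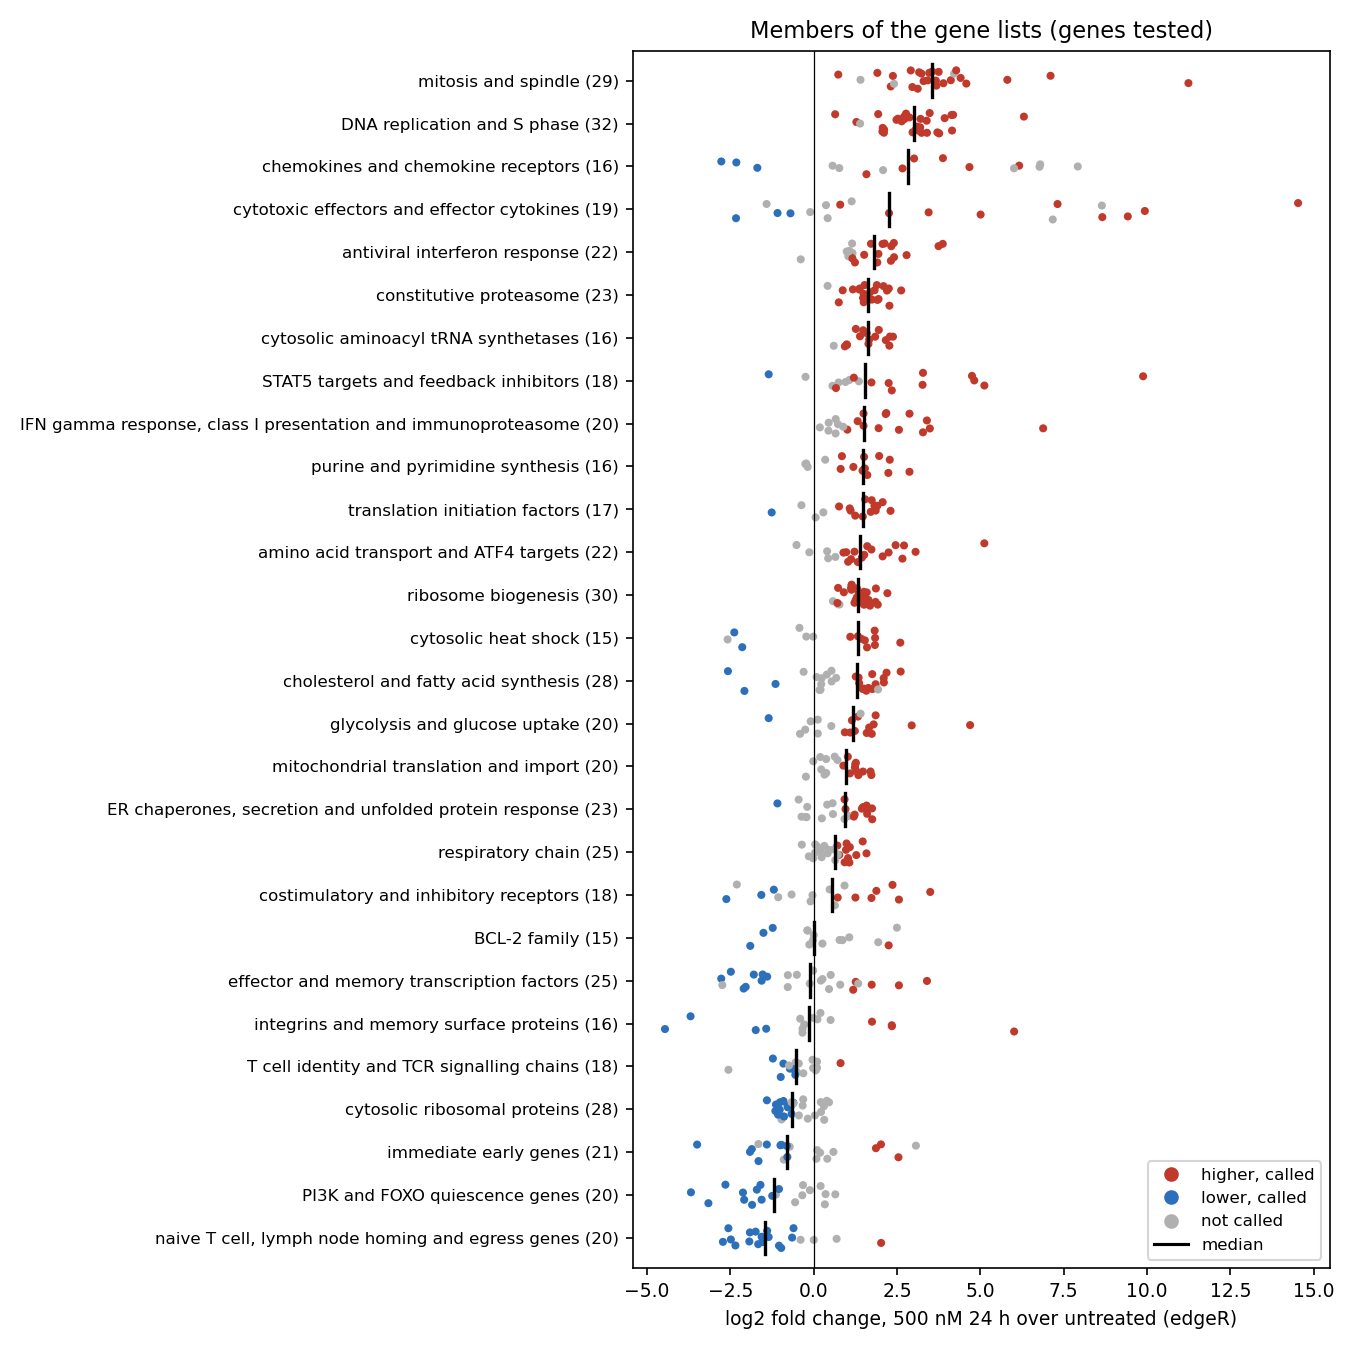
Log2 fold change of 500 nM 24 h over untreated for every tested member of the gene lists with 15 or more tested members, 1 point per gene (red called higher, blue called lower, grey not called) and a line at each median. Members of the replication, mitosis, ribosome biogenesis and proteasome lists lie almost all above 0 and most naive T cell genes below it; the fitted values of Gzmc, Ttk and other genes with 0 reads in untreated cells depend on the prior count.

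Interferon-induced genes were higher. Of 22 antiviral genes 16 rose and none fell (median log2 fold change 1.81). Isg15, a ubiquitin-like modifier, measured 36.4 CPM with IL-2 and 42.2 CPM with IL-15, against 2.68 CPM in untreated cells (log2 fold change 3.87 ± 0.57 (SE), adjusted p = 0.000347). Oasl2, of the oligoadenylate synthetase family, measured 249 CPM with IL-2 and 347 CPM with IL-15, against 22.2 CPM in untreated cells (log2 fold change 3.74 ± 0.65 (SE), adjusted p = 0.000963). Usp18, which removes ISG15 from proteins, measured 316 CPM with IL-2 and 433 CPM with IL-15, against 54.3 CPM in untreated cells (log2 fold change 2.79 ± 0.38 (SE), adjusted p = 0.000198). The IL-15 library was the highest of the 3 for each of these genes. Of 20 genes of the interferon gamma response, class I presentation and the immunoproteasome 13 rose and none fell (median 1.49). Gbp2, a guanylate-binding protein of host defence, measured 1016 CPM with IL-2 and 888 CPM with IL-15, against 85.1 CPM in untreated cells (log2 fold change 3.48 ± 0.70 (SE), adjusted p = 0.00253). Igtp, a GTPase of the same defence, measured 2584 CPM with IL-2 and 2738 CPM with IL-15, against 363 CPM in untreated cells (log2 fold change 2.87 ± 0.64 (SE), adjusted p = 0.00447). Psmb8, an immunoproteasome subunit, measured 3768 CPM with IL-2 and 3705 CPM with IL-15, against 1328 CPM in untreated cells (log2 fold change 1.49 ± 0.29 (SE), adjusted p = 0.00199). Both cytokines gave levels above the untreated library for these 3 genes. B2m, the light chain of class I molecules, stood at 3327 CPM with IL-2 and 3439.8 CPM with IL-15, against 2481 CPM in untreated cells, and was not called. Rsad2 and Oasl1 were not called without the IL-15 500 nM 24 h library or by limma-voom. Mx2 was not called without the IL-15 500 nM 24 h library, without either 1 nM 4 h library, by limma-voom or with a minimum mean of 50 counts. Iigp1 was not called by limma-voom.

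The Igtp promoter is printed as an example from the second list. The 250 bases before the start lie at chr11:58199306-58199555 on the plus strand of GRCm38.p6, and capitals mark the 1 match to the interferon-stimulated response element, searched on either strand as GAAA, any 2 bases and GAAA, which begins at -34.
Igtp: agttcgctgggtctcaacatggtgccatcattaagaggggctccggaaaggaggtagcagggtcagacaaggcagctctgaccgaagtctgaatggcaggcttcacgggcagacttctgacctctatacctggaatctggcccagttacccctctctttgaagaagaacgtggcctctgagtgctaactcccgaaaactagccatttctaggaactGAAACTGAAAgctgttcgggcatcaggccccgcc
Of 17 promoters of this list 8 hold the motif in the 300-base window (47.1%), against 4.97% for genes that rose, 3.1% for all genes tested and 3.49% of all promoters.

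Immediate early genes, which respond within minutes to stimulation, were more often lower than higher: 9 of 21 fell and 3 rose (median -0.79). Fos, a subunit of the AP-1 factor, measured 11.5 CPM with IL-2 and 8.49 CPM with IL-15, against 36.3 CPM in untreated cells (log2 fold change -1.86 ± 0.30 (SE), adjusted p = 0.000601). Egr1, a zinc finger factor, measured 23.8 CPM with IL-2 and 26.4 CPM with IL-15, against 94.5 CPM in untreated cells (log2 fold change -1.91 ± 0.27 (SE), adjusted p = 0.00026). Jun, the partner of FOS, rose to 184 CPM with IL-2 and 147 CPM with IL-15, against 28.4 CPM in untreated cells (log2 fold change 2.54 ± 0.41 (SE), adjusted p = 0.000601). In the BCL-2 family 1 of 15 rose and 3 fell. The riser was Bcl2l1, given above, and the fallers were Mcl1, Bbc3 and Bmf. Mcl1, another survival gene, was at 161 CPM with IL-2 and 161 CPM with IL-15, against 379 CPM in untreated cells (log2 fold change -1.23 ± 0.23 (SE), adjusted p = 0.00171). Bbc3 (PUMA) and Bmf promote cell death and had log2 fold changes of -1.90 and -1.51. Bcl2l11 (BIM) stood at 38.2 CPM with IL-2 and 39.3 CPM with IL-15, against 44.3 CPM in untreated cells, and was not called. Of 11 JAK and STAT genes 2 fell, Jak1 and Tyk2. The shares of this list and of the BCL-2 family that fell are near the 13.2% of all genes tested. Jak1 was at 262 CPM with IL-2 and 275 CPM with IL-15, against 529 CPM in untreated cells (log2 fold change -0.98 ± 0.22 (SE), adjusted p = 0.00514). Tyk2 was at 62.2 CPM with IL-2 and 58.1 CPM with IL-15, against 118 CPM in untreated cells (log2 fold change -0.98 ± 0.21 (SE), adjusted p = 0.00362). Stat5a and Stat5b, the transducers of both cytokines, were not called (log2 fold changes -0.36 and -0.56). Junb was not called without the IL-15 500 nM 24 h library. Fosb was not called without the IL-2 500 nM 24 h library. Nr4a1 and Bmf were not called when either 500 nM 24 h library was left out or by limma-voom.

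By size, the 15 largest rises among called genes with at least 10 CPM in the cytokine libraries included Gzmb, Gzmc, Lif, Ifng, Iigp1 (a defence GTPase) and Mycn, all described above or on the lists. The other 9 were Anln, Apitd1, Cenpi, Dtl, Fancd2, Hist1h3a, Hist1h3c, Irg1 and Prelid2. Cenpi, a centromere protein, had 971 reads in the cytokine libraries against 1 read in untreated cells, a ratio of 436-fold (95% exact counting interval 78.1 to 17236). Fancd2, of DNA crosslink repair, had 868 reads against 1 read, a ratio of 389.7-fold (95% exact counting interval 69.8 to 15409). Irg1, an enzyme best known from macrophages, had 977 reads against 0 in untreated cells and was at least 146-fold higher, while myeloid markers fell. In CPM, the 5 largest rises were those of Gzmb, Psmb8, Vim, Hsp90ab1 and Tubb5. Vim, which encodes the filament protein vimentin, measured 5787 CPM with IL-2 and 5807 CPM with IL-15, against 1093 CPM in untreated cells. Hsp90ab1, a constitutive chaperone, measured 9684 CPM with IL-2 and 8700.1 CPM with IL-15, against 4296 CPM in untreated cells. Tubb5, a beta tubulin, measured 6828 CPM with IL-2 and 6746 CPM with IL-15, against 3569 CPM in untreated cells. Irg1 and Iigp1 were not called by limma-voom.

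The 15 largest falls were those of C6, Cd300e, Col14a1, Emr4, Gfra2, Hpgd, Hs3st2, Igf1, Kcnj10, Mrc1, Pcolce2, Slco2b1, Tgfbi, Treml4 and Trf. Gfra2, a co-receptor for ligands of the GDNF family, had 1 read against 1725 reads, and was lower by 3842-fold (95% exact counting interval 689 to 151852). Treml4, a TREM-like receptor, had 1 read against 1242 reads, and was lower by 2766-fold (95% exact counting interval 496 to 109358). Mrc1, the mannose receptor of macrophages, had 0 reads with both cytokines against 683 reads in untreated cells, and was at least 507-fold lower. On the same terms Slco2b1, an organic anion transporter, was at least 727-fold lower and Tgfbi, a matrix protein, at least 566-fold lower. Igf1, a growth factor of tissue macrophages, had 1 read against 506 reads, and was lower by 1127-fold (95% exact counting interval 201 to 44605). Of the myeloid marker list, C1qc, of the complement C1q complex, measured 4.62 CPM with IL-2 and 7.24 CPM with IL-15, against 837 CPM in untreated cells (log2 fold change -7.14 ± 0.36 (SE), adjusted p = 1.03e-07). Vcam1, an adhesion molecule of splenic macrophages and stroma, measured 7.45 CPM with IL-2 and 4.96 CPM with IL-15, against 218 CPM in untreated cells (log2 fold change -5.14 ± 0.28 (SE), adjusted p = 1.07e-07). Trf, the iron carrier transferrin, was another of the 15, at 0.425 CPM with IL-2 and 0.356 CPM with IL-15, against 329 CPM in untreated cells (log2 fold change -9.70 ± 0.48 (SE), adjusted p = 1.03e-07). The myeloid marker sum, at 68.2 CPM with IL-2 and 49.1 CPM with IL-15, against 2387 CPM in untreated cells, moved with these genes, and its part in them was not tested.

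The comparison with other doses and times did not use the untreated library. Against 1 nM at 24 h, 2186 genes were higher (16.2%) and 2228 lower (16.5%) at 500 nM and 24 h. Against 500 nM at 4 h, 1926 were higher (14.3%) and 1890 lower (14.0%). The median log2 difference over all genes tested was -0.04 in each. The replication genes were higher than at 1 nM for 31 of 32 and higher than at 4 h for 30 of 32, with median log2 differences of 2.28 and 2.59. The mitosis genes were higher than at 1 nM for 27 of 29 and than at 4 h for all 29 tested (medians 2.81 and 3.47). Ribosome biogenesis was higher for 28 and 23 of 30 (medians 1.31 and 0.90), and the proteasome for 21 and 17 of 23.

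STAT5 targets and cytotoxic genes gave other counts. STAT5 targets were higher than at 1 nM and 24 h for 15 of 18 and lower for 1, and against 500 nM at 4 h none was higher and 5 were lower. Cytotoxic genes were higher than at 1 nM for 8 of 19 and lower for 3, and against 4 h 1 was higher and 6 were lower. Gzmb at 500 nM and 24 h exceeded its 1 nM level of 351 CPM with IL-2 and 31.0 CPM with IL-15 (log2 difference 4.23 ± 0.73 (SE), adjusted p = 0.000586). Against its 500 nM 4 h level of 934 CPM with IL-2 and 1409 CPM with IL-15 the difference did not pass (log2 difference 1.61 ± 0.65 (SE), adjusted p = 0.0827).

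Antiviral interferon genes were higher than at 1 nM for 17 of 22 and lower for 1, but lower than at 500 nM and 4 h for 17 of 22, with none higher. Ifit1, an antiviral RNA-binding protein, measured 97.0 CPM with IL-2 and 149.5 CPM with IL-15, against 845 CPM with IL-2 and 1689 CPM with IL-15 at 4 h (log2 difference -3.36 ± 0.32 (SE), adjusted p = 1.26e-05). Immediate early genes were lower than at 4 h for 16 of 21. Naive and homing genes were lower than at 1 nM for 16 of 20 and than at 4 h for 11 of 20, and the FOXO list for 12 and 9 of 20. Amino acid genes were higher than at 1 nM for 17 of 22, and against 4 h 6 were higher and 6 lower. Cholesterol and fatty acid genes were higher for 20 and 13 of 28.

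Il7r separated the doses at 24 h: it measured 29.1 CPM with IL-2 and 28.2 CPM with IL-15 at 500 nM, against 475 CPM with IL-2 and 543 CPM with IL-15 at 1 nM (log2 difference -4.15 ± 0.28 (SE), adjusted p = 9.58e-07). Eomes did the reverse, with 238 CPM with IL-2 and 255 CPM with IL-15 at 500 nM, against 51.0 CPM with IL-2 and 36.4 CPM with IL-15 at 1 nM (log2 difference 2.50 ± 0.22 (SE), adjusted p = 5.34e-06). The myeloid markers were lower than at 1 nM and 24 h for 18 of 19, where they summed to 1019 CPM with IL-2 and 1247 CPM with IL-15. Compared with 500 nM and 4 h, 12 were lower and 1 was higher. Their sums at 500 nM and 4 h were 270 CPM with IL-2 and 222 CPM with IL-15, already far below the 2387 CPM of untreated cells.

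Set against the same untreated library, and so not independent, the list medians (log2 fold change) of the 3 conditions stood side by side as follows. For replication they were 3.01 at 500 nM 24 h, 0.60 at 1 nM 24 h and 0.10 at 500 nM 4 h. For STAT5 targets they were 1.54 at 500 nM 24 h, 0.22 at 1 nM 24 h and 1.96 at 500 nM 4 h. For antiviral genes they were 1.81 at 500 nM 24 h, 0.50 at 1 nM 24 h and 3.67 at 500 nM 4 h. For naive and homing genes they were -1.46 at 500 nM 24 h, 0.27 at 1 nM 24 h and -0.55 at 500 nM 4 h, and for aminoacyl tRNA synthetases 1.62 at 500 nM 24 h, 0.36 at 1 nM 24 h and 1.91 at 500 nM 4 h.

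**Figure D5:**
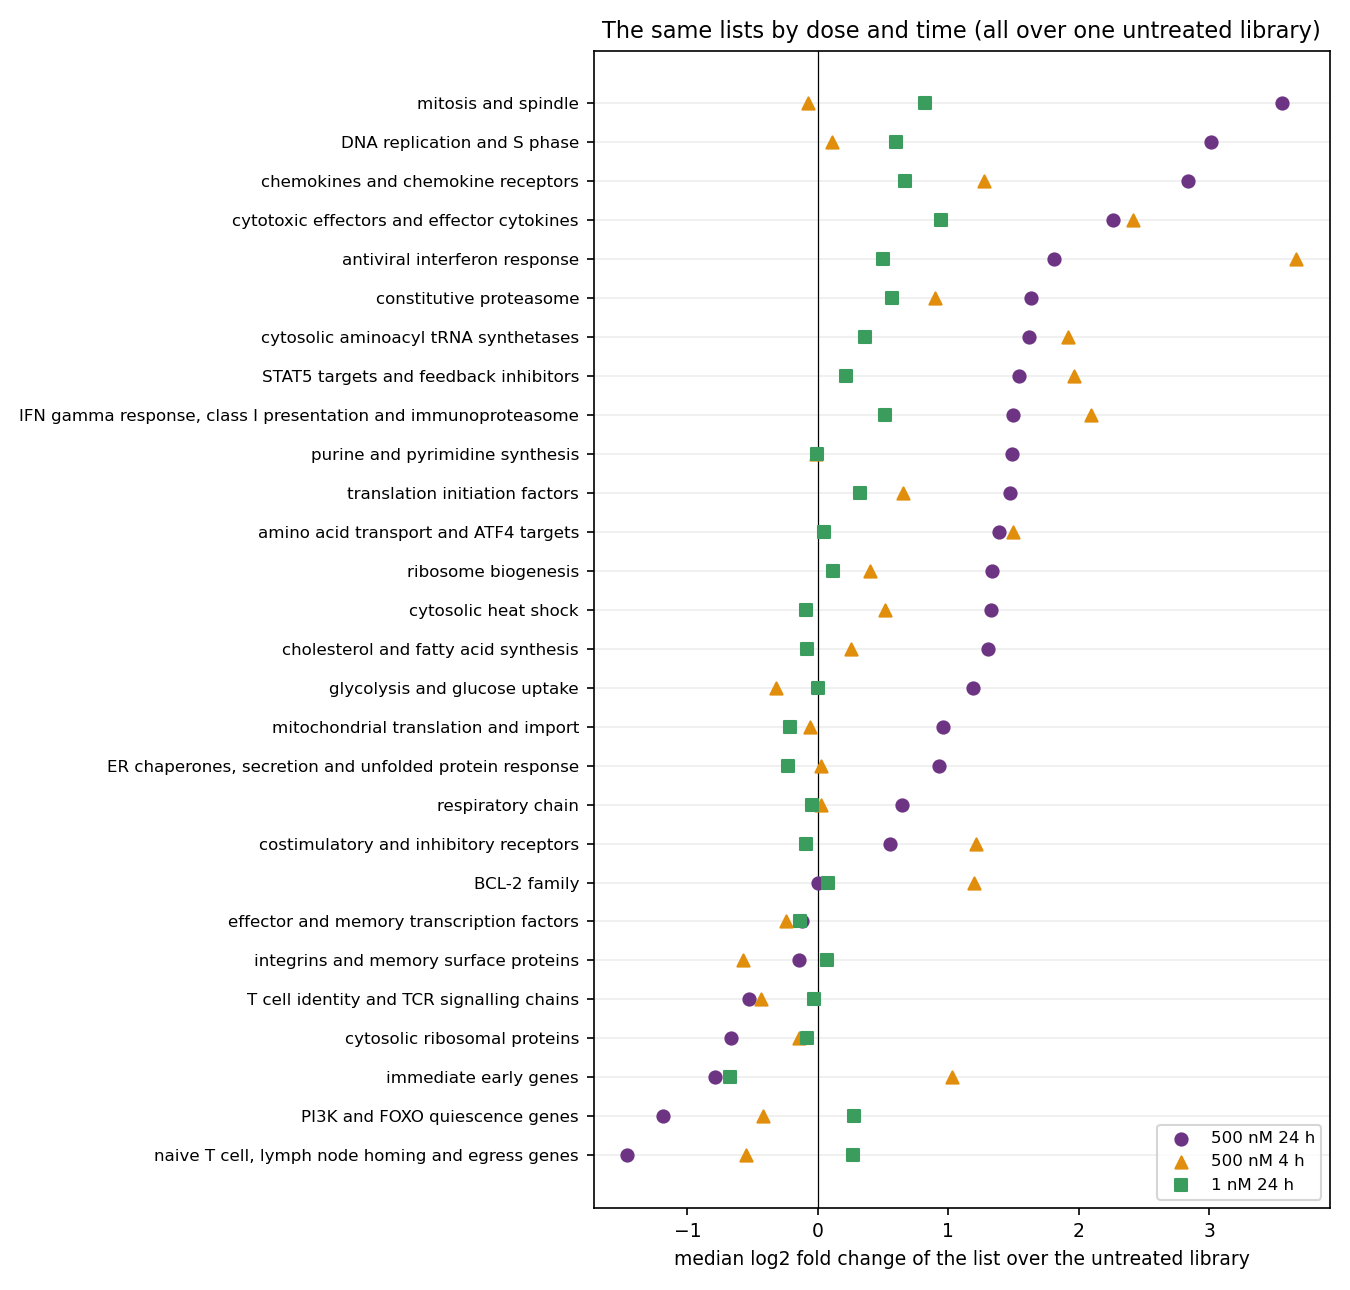
Median log2 fold change over untreated of each gene list with 15 or more tested members, for 500 nM 24 h, 500 nM 4 h and 1 nM 24 h, 1 point per condition; all share the untreated library. Replication and mitosis lie highest at 500 nM and 24 h, and the antiviral list at 500 nM and 4 h.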

How the data were processed

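RNA sequencing of mouse splenic CD8+ T cells gave 9 libraries, each of 2.5 ng of RNA pooled from 3 samples and amplified by PCR, per the labels' protocols. Reads were base-called with CASAVA 1.8 and aligned with Bowtie 0.12.4 to mm8, per the submitters' processing notes. The sources used here do not say how strand and multi-mapping reads were handled. The authors deposited raw counts for 24373 RefSeq transcripts of 20418 gene symbols, and RPKM values that, per the file headers, rest on the same counts. All tests used the counts.

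Where a symbol had several transcripts (2673 symbols), the one with the highest mean count was kept, and 43 symbols share all counts with another symbol. Genes passing edgeR's filterByExpr (minimum count 10, total 15) numbered 13479. After TMM scaling, the quasi-likelihood model of edgeR 4.0.16 (R 4.3.3) was fitted to 5 groups: untreated and the 4 dose and time combinations, with the IL-2 and IL-15 libraries as a pair. This left 4 residual degrees of freedom. A call needed a Benjamini-Hochberg adjusted p under 0.05 and the same direction for both cytokines. On simulated data for this comparison (13022 genes), 22 of 100 genes changed 2-fold and 100 of 100 changed 8-fold were called, and 5 of 12822 unchanged genes. The changed genes were drawn from those with a mean above 5 CPM. They were far fewer than the genes called in the real data, so recovery at 2-fold may differ there. The untreated library was simulated like the others, so the unchanged genes called cannot show the effect of a deviation of that library. Where one group had 0 reads, 3 counts over that group stood in for it, and the fold is a lower bound; 1 to 3 reads gave a ratio with a 95% exact interval.

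The members and the 43 gene lists were chosen with earlier results of these data known. Named were the 15 largest rises and falls with at least 10 CPM in the higher group and a standard symbol, the 5 largest differences in CPM per direction, core members of each list and up to 4 further called members, and the text gives examples of these. Alternatives were DESeq2 1.42.0, limma-voom (limma 3.58.1), other scalings, filters and transcript choices, a cytokine term, a 2-fold minimum, the 3 libraries alone, and leaving out each treated library. Promoters came from RefSeq's GRCm38.p6 table, which holds 78.2% of the genes tested. Some listed genes were counted in their lists but are not reported by name here.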

Additional observations from a re-analysis of the deposited data

Results flagged for a closer look

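Named genes were singled out here where 500 nM at 24 h and another dose or time were called in opposite directions against untreated cells and the difference between the 2 conditions was itself called by edgeR's quasi-likelihood test. Both calls against untreated cells share that library; the difference does not use it.

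Between the doses at 24 h, 5 genes did so. Eomes, a T-box transcription factor, measured 238 CPM with IL-2 and 255 CPM with IL-15 at 500 nM and 24 h, against 51.0 CPM and 36.4 CPM at 1 nM and 24 h, with 103 CPM in untreated cells (log2 difference 2.50 ± 0.22 SE, adjusted p = 5.34e-06). Il7r, the IL-7 receptor alpha chain, measured 29.1 CPM with IL-2 and 28.2 CPM with IL-15 at 500 nM and 24 h, against 475 CPM and 543 CPM at 1 nM and 24 h, with 146 CPM in untreated cells (log2 difference -4.15 ± 0.28 SE, adjusted p = 9.58e-07). Lyz2, lysozyme of myeloid cells, measured 2.04 CPM with IL-2 and 2.82 CPM with IL-15 at 500 nM and 24 h, against 138 CPM and 217 CPM at 1 nM and 24 h, with 20.9 CPM in untreated cells (log2 difference -6.19 ± 0.31 SE, adjusted p = 1.07e-07). Pik3ip1, an inhibitor of PI3K, measured 48.0 CPM with IL-2 and 62.4 CPM with IL-15 at 500 nM and 24 h, against 370.1 CPM and 444 CPM at 1 nM and 24 h, with 180.1 CPM in untreated cells (log2 difference -2.88 ± 0.21 SE, adjusted p = 1.24e-06). Srm, spermidine synthase, measured 548 CPM with IL-2 and 404 CPM with IL-15 at 500 nM and 24 h, against 94.2 CPM and 51.3 CPM at 1 nM and 24 h, with 187 CPM in untreated cells (log2 difference 2.71 ± 0.28 SE, adjusted p = 1.45e-05). Lyz2 marks myeloid cells, whose marker sum is given in the results, and the part of those cells in its difference was not tested.

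Between 24 h and 4 h at 500 nM, 10 genes did so, 5 lower and 5 higher at 24 h. Btg1, an antiproliferative gene, measured 148 CPM with IL-2 and 153 CPM with IL-15 at 500 nM and 24 h, against 504 CPM and 634 CPM at 500 nM and 4 h, with 309 CPM in untreated cells (log2 difference -1.92 ± 0.18 SE, adjusted p = 1.05e-05). Cd83, an activation marker, measured 40.5 CPM with IL-2 and 58.2 CPM with IL-15 at 500 nM and 24 h, against 329 CPM and 371 CPM at 500 nM and 4 h, with 113 CPM in untreated cells (log2 difference -2.83 ± 0.22 SE, adjusted p = 6.83e-06). Fos, an immediate early factor, measured 11.5 CPM with IL-2 and 8.49 CPM with IL-15 at 500 nM and 24 h, against 84.2 CPM and 70.6 CPM at 500 nM and 4 h, with 36.3 CPM in untreated cells (log2 difference -2.95 ± 0.27 SE, adjusted p = 1.05e-05). Junb, an AP-1 factor, measured 326 CPM with IL-2 and 236 CPM with IL-15 at 500 nM and 24 h, against 1071 CPM and 1168 CPM at 500 nM and 4 h, with 549 CPM in untreated cells (log2 difference -1.99 ± 0.19 SE, adjusted p = 1.24e-05). Nr4a1, a nuclear receptor induced early, measured 14.9 CPM with IL-2 and 14.6 CPM with IL-15 at 500 nM and 24 h, against 77.6 CPM and 78.2 CPM at 500 nM and 4 h, with 25.8 CPM in untreated cells (log2 difference -2.40 ± 0.20 SE, adjusted p = 6.83e-06). Sdf2l1, an ER chaperone complex protein, measured 269 CPM with IL-2 and 191 CPM with IL-15 at 500 nM and 24 h, against 18.1 CPM and 22.1 CPM at 500 nM and 4 h, with 68.1 CPM in untreated cells (log2 difference 3.51 ± 0.39 SE, adjusted p = 3.32e-05). Tk1, thymidine kinase, measured 136 CPM with IL-2 and 149 CPM with IL-15 at 500 nM and 24 h, against 3.03 CPM and 6.13 CPM at 500 nM and 4 h, with 16.3 CPM in untreated cells (log2 difference 4.96 ± 0.46 SE, adjusted p = 1.1e-05). Tkt, transketolase, measured 693 CPM with IL-2 and 669 CPM with IL-15 at 500 nM and 24 h, against 196 CPM and 229 CPM at 500 nM and 4 h, with 404 CPM in untreated cells (log2 difference 1.68 ± 0.19 SE, adjusted p = 4.27e-05). Tomm40, the mitochondrial import pore, measured 394 CPM with IL-2 and 299.9 CPM with IL-15 at 500 nM and 24 h, against 57.8 CPM and 47.8 CPM at 500 nM and 4 h, with 137 CPM in untreated cells (log2 difference 2.72 ± 0.30 SE, adjusted p = 3.19e-05). Tubb5, a beta tubulin, measured 6828 CPM with IL-2 and 6746 CPM with IL-15 at 500 nM and 24 h, against 2012 CPM and 1585 CPM at 500 nM and 4 h, with 3569 CPM in untreated cells (log2 difference 1.92 ± 0.17 SE, adjusted p = 8.46e-06).

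Some of the calls against untreated cells were lost when 1 of the 500 nM 24 h libraries was left out. Such a fit compares 1 library with 1 library. Tkt and Nr4a1 kept log2 fold changes of 0.73 and -0.82 without the IL-2 library, and 0.79 and -0.78 without the IL-15 library. Without the IL-2 500 nM 24 h library, Sdf2l1 (adjusted p = 0.0515, edgeR), Srm (0.0524), Tomm40 (0.063), Nr4a1 (0.0917) and Tkt (0.118) were not called. Without the IL-15 500 nM 24 h library, Junb (0.0728), Tkt (0.0847) and Nr4a1 (0.105) were not called, and limma-voom did not call Nr4a1 (0.0562).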

How the results depend on the processing

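No gene called against untreated changed direction under any of the 18 alternatives run. That was largely fixed in advance, because a call already needs both 500 nM 24 h libraries on the same side of the untreated library. Of 414 named genes that were called, 313 were called under all of them. DESeq2 kept all 414, limma-voom lost 21, a cytokine term 11, library totals alone 3, a 2-fold minimum in both libraries 51, and leaving out the IL-2 or the IL-15 500 nM 24 h library 62 or 53. Named genes were picked partly for large changes, so these counts do not stand for all called genes. Over all calls, DESeq2 kept 1867 of 1871 genes higher and 1767 of 1779 lower, and limma-voom kept 1621 and 1647. Counts of genes higher and lower were 2129 and 2001 by DESeq2, 1657 and 1872 by limma-voom, 1808 and 1868 with median-of-ratios scaling, 1963 and 1646 with library totals, 2155 and 2020 without a filter, and 1385 and 1196 with the 2-fold minimum. They were 3057 and 2788 with the 3 libraries alone, where the spread rests on 1 degree of freedom. Leaving out 1 treated library gave 1201 to 2062 genes higher and 1068 to 1861 lower. The lowest of these came without the IL-2 500 nM 24 h library; that fit has fewer samples, and its lone IL-15 library is assumed to vary like the other groups. Against 1 nM at 24 h DESeq2 called 2436 higher and 2363 lower, and against 500 nM at 4 h 2083 and 2076. A cytokine term, which blocks the treated libraries by cytokine, gave 1731 genes higher and 1660 lower. No paired analysis was possible because the labels give no replicate numbers or shared animals that would tie a treated library to the untreated one. In data simulated with the groups, library sizes and fitted spread of this series, changes near 2-fold were often missed, so genes not called may still differ. Those data held far fewer changed genes than were called here and an untreated library without any deviation of its own.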
